A study of Mus musculus with 6 samples.

Results

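The ADAM genes encode membrane proteins with a disintegrin and a metalloprotease domain. In mouse testis, 33 protein-coding genes of the gene table carried a symbol made of Adam, a number and at most 1 further letter, which leaves out the secreted Adamts proteases. They were taken from 45777 genes, of which 21949 were protein-coding, by name and gene type alone. The gene listed in the table as Gm5346, for which RefSeq now gives the symbol Adam34l, did not match by its listed symbol and was not counted as a member. Total RNA was sequenced from testes of wild-type (WT) mice after 16 weeks of daily liquid diet, 10 ml per head, to ask what chronic ethanol intake does to the testis transcriptome. The Ethanol-fed mice received the LDC liquid diet with ethanol, the Control-fed mice the control LDC diet, and both diets followed 5 days on the control diet. Each diet had 3 libraries, made from ribosome-depleted RNA with a stranded kit. The strain, the age and whether each library came from a separate animal are not stated in the labels, so the p-values below measure only the spread between these libraries, which may be technical.

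ADAM proteins fall into groups with different work. Some are active proteases that cut the outer part of other membrane proteins free from the cell, among them ADAM10, which cleaves Notch receptors, and ADAM17, which releases tumour necrosis factor. Many others are made by germ cells, and some of these end up on the sperm head and act in adhesion rather than as proteases. The first of these to be described was fertilin, a pair of an ADAM1 and an ADAM2 subunit, and mouse sperm that lack ADAM3 do not pass from the uterus into the oviduct or bind the egg coat well. By these known roles the 33 genes were put into 4 classes, with 20 in a sperm class, 8 in a somatic class of widely expressed proteases, 3 in a neural class and 2 in an epididymal class.

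The proteolytic core of an active ADAM is a zinc-binding site in which a histidine and a glutamate are followed, after 2 variable residues, by a second histidine, then by a glycine and one more histidine, each after 2 variable residues. A coding sequence for this motif was found in all 8 genes of the somatic class and in 11 of the 20 genes of the sperm class. It was found in 0 of the 3 neural genes, and in 1 of the 2 epididymal genes, Adam28. The stretches of 33 coding bases that follow are shown because they separate the potential proteases from the others. They are read from GENCODE M21 transcripts on mm10, and capitals mark codons for the 5 fixed residues. For genes without the motif, the stretch aligned with that of Adam9 is given.
Adam9: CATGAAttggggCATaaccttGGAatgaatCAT
Adam10: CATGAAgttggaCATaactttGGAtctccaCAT
Adam17: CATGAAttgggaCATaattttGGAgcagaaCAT
Adam1b: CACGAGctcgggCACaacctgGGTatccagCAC
Adam24: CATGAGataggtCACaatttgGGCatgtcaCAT
Adam25: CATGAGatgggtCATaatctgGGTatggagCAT
Adam29: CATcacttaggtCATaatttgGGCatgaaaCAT
Adam4: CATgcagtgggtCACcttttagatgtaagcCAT
Adam6a: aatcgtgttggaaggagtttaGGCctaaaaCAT
Adam2: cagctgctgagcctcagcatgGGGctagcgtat
Adam3: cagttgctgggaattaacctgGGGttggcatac
The first 3 belong to the somatic class and kept all 5 residues, as did Adam1b, Adam24 and Adam25 of the sperm class. Adam29 kept 4 and lacked the glutamate, Adam4 kept 3 and Adam6a kept 2. Adam2 and Adam3 each kept 1, the glycine, and Adam5, Adam18 and Adam32 also kept 1. The stretch of Adam9 lies at chr8:24990326-24990358 (minus strand), that of Adam24 at chr8:40680518-40680550 (plus strand) and that of Adam3 at chr8:24707418-24707450 (minus strand). The stretch of Adam10 is split by an intron.

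Gene structure also divided the sperm class. In 15 of its 20 genes the longest coding sequence lay in 1 coding exon, and all 11 genes with the zinc motif were among them, while Adam4, Adam6a, Adam6b and Adam29 had 1 coding exon without the motif. The other 5, Adam2, Adam3, Adam5, Adam18 and Adam32, had 19 to 22 coding exons and no motif. Every gene of the somatic class had 16 to 24 coding exons. The family was also clustered on chromosomes: 20 of the 33 genes lay less than 1000000 bases from another member, in 7 groups. The largest group held Adam18, Adam3, Adam5, Adam32 and Adam9 within 414.8 kb of chromosome 8, from 24602246 to 25017040 on mm10, with 0 other protein-coding genes of RefSeq between them. A second group on chromosome 8, from 40675077 to 40826861, held Adam24, Adam25, Adam20 and Adam39, and another, from 43519864 to 43665560, held Adam26b, Adam26a and Adam34. Adam6b and Adam6a lay together on chromosome 12, and so did Adam4 and Adam21, with 3 other protein-coding genes between them.

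Some of these neighbours are close copies. Coding sequences were 96.1% identical between Adam39 and Adam25, 94.9% between Adam6a and Adam6b, 94.4% between Adam26a and Adam26b, and 83.3% between Adam1a and Adam1b. Of all 100-base windows of its transcript, Adam1b shared 30.3% exactly with another member, Adam20 shared 19.0% and Adam6a 13.1%. Adam2, Adam3, Adam5, Adam18, Adam32 and all genes of the somatic class shared 0% with any other member. Counts of the copies are uncertain to the extent that reads from shared windows were split or dropped, since the counting rule is not given in the sources used here.

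The promoter windows at hand from 10 sperm-class genes held few CpG, the dinucleotide that carries DNA methylation. RefSeq promoter windows of 300 bases, from 250 before to 50 after a start site on GRCm38.p6, were found for 17 of the 33 genes. The 10 from the sperm class all belong to genes with 1 coding exon, so Adam2, Adam3, Adam5, Adam18 and Adam32 are not described here. In the 10 windows of the sperm class, CpG counts ran from 0 to 4 with a median of 1, and GC content from 35.3% to 51.0%. In the 9 windows of the other classes, from 7 genes, CpG counts ran from 5 to 32 with a median of 19, and GC content from 49.3% to 73.3%. The median over all 32851 windows of the table was 7 CpG and 52.7% GC. Windows of Adam29, at chr8:55906915-55907214 (minus strand), and Adam6a, at chr12:113543658-113543957 (plus strand), are shown as examples of the sperm class, with the letters TATAAA or their reverse complement in capitals. Windows of Adam10, at chr9:70678732-70679031 (plus strand), and Adam17, at chr12:21373583-21373882 (minus strand), are shown for the somatic class, with each CG in capitals.
Adam29: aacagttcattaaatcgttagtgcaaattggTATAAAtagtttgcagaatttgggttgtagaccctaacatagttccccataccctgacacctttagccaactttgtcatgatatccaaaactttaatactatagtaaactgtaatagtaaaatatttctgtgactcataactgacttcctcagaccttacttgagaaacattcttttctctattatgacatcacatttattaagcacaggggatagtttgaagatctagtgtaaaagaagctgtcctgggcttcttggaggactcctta
Adam6a: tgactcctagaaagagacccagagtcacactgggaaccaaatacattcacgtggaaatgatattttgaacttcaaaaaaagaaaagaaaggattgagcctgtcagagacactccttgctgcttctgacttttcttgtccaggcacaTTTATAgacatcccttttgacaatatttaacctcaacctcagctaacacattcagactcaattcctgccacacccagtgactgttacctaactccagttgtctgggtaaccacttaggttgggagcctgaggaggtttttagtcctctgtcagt
Adam10: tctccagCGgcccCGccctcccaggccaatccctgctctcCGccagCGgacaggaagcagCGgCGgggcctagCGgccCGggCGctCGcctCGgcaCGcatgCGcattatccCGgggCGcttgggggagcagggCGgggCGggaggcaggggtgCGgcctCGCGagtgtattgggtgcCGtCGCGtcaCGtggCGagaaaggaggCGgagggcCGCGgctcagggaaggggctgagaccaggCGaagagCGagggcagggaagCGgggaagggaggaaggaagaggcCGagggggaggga
Adam17: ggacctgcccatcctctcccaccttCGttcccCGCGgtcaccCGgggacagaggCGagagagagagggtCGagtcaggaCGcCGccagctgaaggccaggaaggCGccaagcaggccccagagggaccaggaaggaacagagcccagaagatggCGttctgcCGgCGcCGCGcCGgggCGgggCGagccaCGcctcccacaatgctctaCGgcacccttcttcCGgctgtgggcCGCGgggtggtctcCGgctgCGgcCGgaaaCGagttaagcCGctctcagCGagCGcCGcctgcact
TATAAA on either strand was present in 3 of the 10 sperm-class windows, those of Adam29, Adam6a and Adam6b, in 0 of the other 9, and in 13.6% of all windows. The windows of Adam6a and Adam6b share the stretch that holds it, so their matches are copies of each other. The matches of Adam29, Adam6a and Adam6b began at bases 32, 147 and 46 of windows that hold 250 bases before the start site. The cyclic AMP response element, TGACGTCA, which spermatid activators of the CREM type can bind, was in 0 of the 19 member windows and in 1.79% of all windows.

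All 20 genes of the sperm class were abundant in these testes. Abundant was taken as a mean of at least 10 TPM, the authors' level scaled to transcript length and library size, over the 6 libraries; 23 of the 33 genes reached it. In the sperm class mean levels ran from 23.6 to 1022 TPM with a median of 94.2, and 10 genes exceeded 100 TPM. The other 3 abundant genes were the proteases Adam17, Adam9 and Adam10, at 14.5, 13.5 and 12.1 TPM. The sperm class therefore stood above every somatic and neural member in mean level, with 20 genes at ranks 64 to 5401 and the somatic genes at ranks 7048 to 15863 among the 21949 protein-coding genes. The class was drawn up from genes known to be made by germ cells, and with earlier results known. Its high level in testis is therefore no independent finding.

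**Figure D1:**
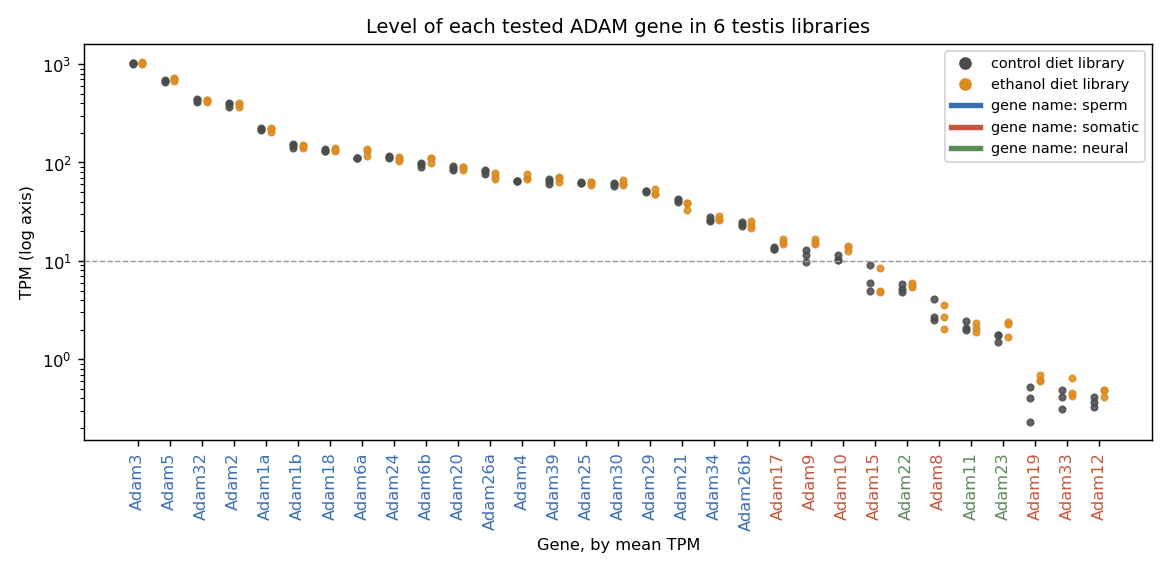
Level of the 31 tested ADAM genes in each of 6 libraries, in TPM on a log axis, with grey points for the control diet, orange points for the ethanol diet and gene names coloured by class. The dashed line marks 10 TPM; the 20 sperm-class genes all lie above it, from 23.6 to 1022 TPM in the mean, and Adam7 and Adam28, which were not tested, are not drawn.

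Adam3, which encodes cyritestin, the protein needed for entry of sperm into the oviduct, led the family with 1020.3 ± 21.5 TPM in controls and 1024 ± 30.4 TPM with ethanol (SD, n = 3), rank 64 of all protein-coding genes. Adam5, its neighbour on chromosome 8, followed with 671 ± 14.9 TPM in controls and 705 ± 26.96 TPM with ethanol. Adam32 stood at 427 ± 13.6 TPM in controls and 425 ± 13.1 TPM with ethanol. Next came Adam2, which encodes fertilin beta, with 385 ± 14.9 TPM in controls and 390.3 ± 19.3 TPM with ethanol. The 4 leading genes made up 62.4% of all counts of the family and, as shown above, have many coding exons and no zinc motif. Adam1a, whose product pairs with ADAM2 in the endoplasmic reticulum, stood at 218 ± 3.61 TPM in controls and 216 ± 8.99 TPM with ethanol. Adam1b, whose product reaches the sperm surface with ADAM2, stood at 149 ± 6.68 TPM in controls and 146 ± 6.34 TPM with ethanol. Among these 6 genes each lay above the next in all 6 libraries with no overlap of their ranges.

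Further down, the order of levels was less firm. Adam18, Adam6a, Adam24 and Adam6b followed with means of 133, 119, 111 and 100.4 TPM. Adam20 and the testase gene Adam26a had means of 87.97 and 77.03 TPM. From Adam1b down to Adam30, at 61.6 TPM, the ranges of each gene and the next over the 6 libraries overlapped. Within single libraries, Adam1b still lay above Adam18, Adam6b above Adam20 and Adam20 above Adam26a in 6 of 6, while the other neighbours of this stretch changed places in at least 1 library. Adam4, Adam39 and Adam25 lay in this stretch at 67.8, 66.2 and 61.98 TPM. The lowest of the class were Adam29 at 50.2, Adam21 at 38.98, Adam34 at 26.96 and Adam26b at 23.6 TPM, and only the last pair overlapped. Within the class, the 15 genes with 1 coding exon had a median of 67.8 TPM (23.6 to 217 TPM), and the 5 genes with many had a median of 426 TPM (133 to 1022 TPM).

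**Figure D2:**
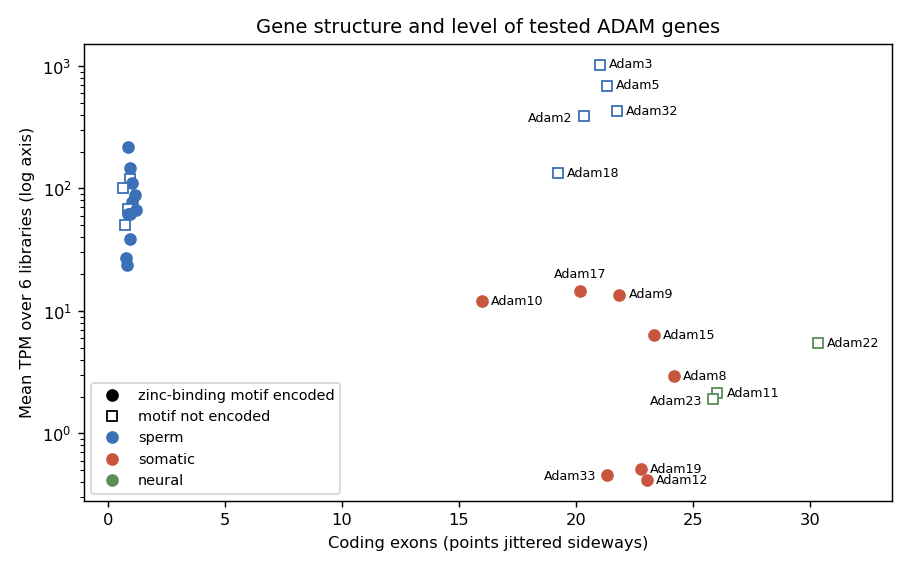
Mean TPM over 6 libraries on a log axis against the number of coding exons of the longest coding sequence for the 31 tested genes, with filled circles for genes that encode the zinc-binding motif, open squares for genes that do not, and colours for class. The 15 sperm-class genes with 1 coding exon stand at the left between 23.6 and 217 TPM, and the 5 with 19 to 22 coding exons stand between 133 and 1022 TPM, above every somatic and neural gene.

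The 10 genes under 10 TPM were known from other tissues. Adam15 stood at 6.36 TPM, Adam22, which encodes a receptor of LGI proteins at synapses, at 5.48 TPM, and Adam8, a gene of white blood cells, at 2.92 TPM. Adam11 and Adam23 of the neural class had means of 2.14 and 1.89 TPM, and Adam19, Adam33 and Adam12 had means of 0.510, 0.458 and 0.417 TPM. Adam7 and Adam28, which the epididymis expresses, were nearly absent. Each had reads in control library 2 alone, 2 for Adam7 and 4 for Adam28, and a count of 0 in the other libraries allows up to 0.0633 to 0.0771 CPM there, for counting error only. Of 12 epididymal markers, Lcn5, Lcn10 and Ovch2 were at 0 in every library and 6 others had means under 1 TPM without passing the filter. The list did hold counts, since Wfdc10 had a mean of 40.3 TPM, Rnase10 of 6.03 TPM and Spink8 of 0.934 TPM.

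No ADAM gene passed the comparison of diets, and the members lay on both sides of 0. Counts were compared by edgeR's quasi-likelihood test over 25073 genes, which included 31 of the 33 members, with p-values adjusted over all of them by the method of Benjamini and Hochberg; 0 genes were called at an adjusted p of 0.05, so that the background of called genes was 0%. Values per library are given as CPM, counts scaled to library size after TMM normalization, and the difference between diets as the log2 fold change of ethanol over control, with its standard error (SE). At an unadjusted p under 0.05 there were 7 of the 31 members, or 22.6%, beside 13.3% of all genes tested. In 10 members, or 32.3%, the diets did not overlap in CPM, beside 18.8% of all genes. Of these, 6 were higher with ethanol and 4 lower, beside 9.76% and 9.01% of all genes. In TPM the diets were apart in 9 members, beside 16.1% of all genes. Those apart on both scales were 5, Adam9, Adam10, Adam17 and Adam19 on the higher side and Adam21 on the lower, and those apart in TPM alone were Adam4, Adam6a, Adam6b and Adam12. The median log2 fold change of the 31 members was -0.03, where that of all genes was 0.0065.

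The sperm and somatic classes had medians on opposite sides of 0; the difference between classes was not tested. In bulk tissue fewer cells of a type and less RNA per cell cannot be told apart. In the sperm class 6 of 20 genes lay above 0 and 14 below, where 51.5% of all genes lay above 0, with a median of -0.06 and a range from -0.22 to 0.15. In the somatic class 7 of 8 genes lay above 0, with a median of 0.28. Of the 7 members at an unadjusted p under 0.05, the 2 lower ones, Adam21 and Adam26a, were sperm-class genes. The 5 higher ones were Adam9, Adam10, Adam17 and Adam19 of the somatic class and Adam22 of the neural class. These were 2 of 20 genes of the sperm class and 4 of 8 of the somatic class, beside a background of 7.45% of all genes on the higher side and 5.89% on the lower side. On log2(TPM + 1) the sperm class did not lean to one side, with 11 genes above 0 and 9 below and a median of 0.0043. On that scale the median of all genes was 0.044. The same 4 somatic genes were at an unadjusted p under 0.05, and in the sperm class Adam6a and Adam6b were, both higher. The share of all genes at that p on this scale is not given here, so these genes are named without a background.

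**Figure D3:**
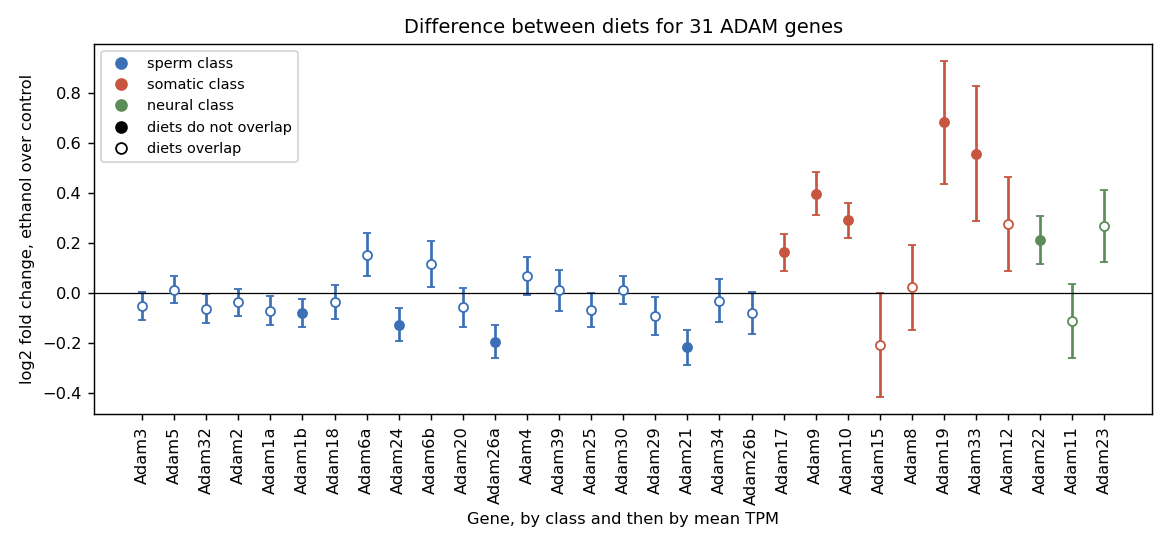
Log2 fold change of ethanol over control with its standard error for 31 ADAM genes, from edgeR on 3 libraries a diet, ordered by class and then by mean TPM; filled points mark genes whose libraries do not overlap between diets. Sperm-class genes lie between -0.22 and 0.15, and the filled points on the higher side are Adam17, Adam9, Adam10, Adam19, Adam33 and Adam22.

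Among the proteases of the somatic class, Adam9 had the smallest p of the family. Adam9 (Gene ID 11502; chromosome 8, 24949611 to 25017040 on mm10), a broadly expressed sheddase, was at 24.98, 26.2 and 22.2 CPM in control libraries 1, 2 and 3 and 32.8, 30.2 and 33.6 CPM in ethanol libraries 1, 2 and 3. The lowest ethanol library lay above the highest control. Its log2 fold change was 0.40 (SE 0.09), a 1.32-fold difference (edgeR adjusted p = 0.153). It is the somatic neighbour of Adam3, Adam5, Adam18 and Adam32, whose fold changes lay between -0.06 and 0.01. Adam10 (Gene ID 11487; chromosome 9, 70678944 to 70780229), the Notch sheddase, was at 25.4, 26.3 and 26.1 CPM in control libraries 1, 2 and 3 and 31.5, 31.99 and 31.6 CPM in ethanol libraries 1, 2 and 3. Its libraries were close together within each diet and did not overlap between them, and its log2 fold change was 0.29 (SE 0.07) at an edgeR adjusted p of 0.153. DESeq2 on the same counts called both genes, with adjusted p = 0.0117 for Adam9 and 0.0479 for Adam10; over all alternative fits the adjusted p ran up to 0.481 and 0.473.

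Adam17, the sheddase of tumour necrosis factor, was at 31.4, 30.9 and 32.7 CPM in control libraries 1, 2 and 3 and 35.99, 33.3 and 36.99 CPM in ethanol libraries 1, 2 and 3. The diets did not overlap, and its log2 fold change was 0.16 (SE 0.07) at an edgeR adjusted p of 0.367. It was not at an unadjusted p under 0.05 with RLE or upper-quartile scaling, DESeq2, limma-voom or the replicate block, or when any library other than ethanol library 2 was left out. Exons of Iah1 and Adam17 overlap on opposite strands, and the strand setting of the counts is not given, so their reads may not be told apart there. The same holds for exons of Adam3, Adam8, Adam15 and Adam19 and their unnamed or predicted neighbours, and Adam1a and Adam34 overlap predicted genes on their own strand. Adam19, known as meltrin beta, was at 0.812, 1.69 and 1.43 CPM in the controls and 2.17, 1.97 and 2.17 CPM with ethanol. Its log2 fold change was 0.68 (SE 0.25), the highest of the family but at a level of about 1 to 2 CPM, where control library 1 stood apart at 0.812 CPM; without that library the fold change was 0.42 and no longer at an unadjusted p under 0.05. Adam33, a gene of smooth muscle and stroma, was at 0.876, 0.564 and 0.894 CPM in the controls and 1.41, 0.960 and 1.07 CPM with ethanol. The ethanol libraries lay above the controls by a narrow margin, and the log2 fold change was 0.56 (SE 0.27). In TPM Adam33 overlapped. At these low levels the added constant shrinks a difference, and on log2(TPM + 1) it was 0.25 for Adam19 and 0.11 for Adam33.

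The other somatic genes overlapped between diets in CPM. The log2 fold change of Adam12 (meltrin alpha) was 0.27 (SE 0.19), and that of Adam8 was 0.02 (SE 0.17). Adam15 was at 9.64, 13.6 and 8.33 CPM in the controls and 12.1, 7.41 and 7.80 CPM with ethanol, with control library 2 and ethanol library 1 the highest of the 6, and was the 1 somatic gene below 0, at -0.21 (SE 0.21). Its value turned on those libraries, being 0.02 without control library 2 and -0.47, at an unadjusted p of 0.0283 from edgeR, without ethanol library 1. It was -0.36 without control library 3, -0.12 without ethanol library 3 and -0.08 without ethanol library 2. In the neural class, Adam22 was at 13.5, 14.1 and 14.4 CPM in the controls and 17.5, 14.7 and 16.5 CPM with ethanol. Its diets did not overlap, and its log2 fold change was 0.21 (SE 0.09) with an edgeR adjusted p of 0.366. Adam22 was not at an unadjusted p under 0.05 with RLE scaling, no filter, DESeq2, limma-voom or the replicate block. Nor was it with limma on TPM or FPKM, or when any library other than ethanol library 2 was left out. In TPM Adam22 overlapped, and its difference was 0.09 on log2(TPM + 1), 0.11 on log2(TPM + 0.1) and 0.06 on log2(FPKM + 1). Adam23 stood at 0.27 (SE 0.14) and Adam11 at -0.11 (SE 0.15), both with overlap.

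**Figure D4:**
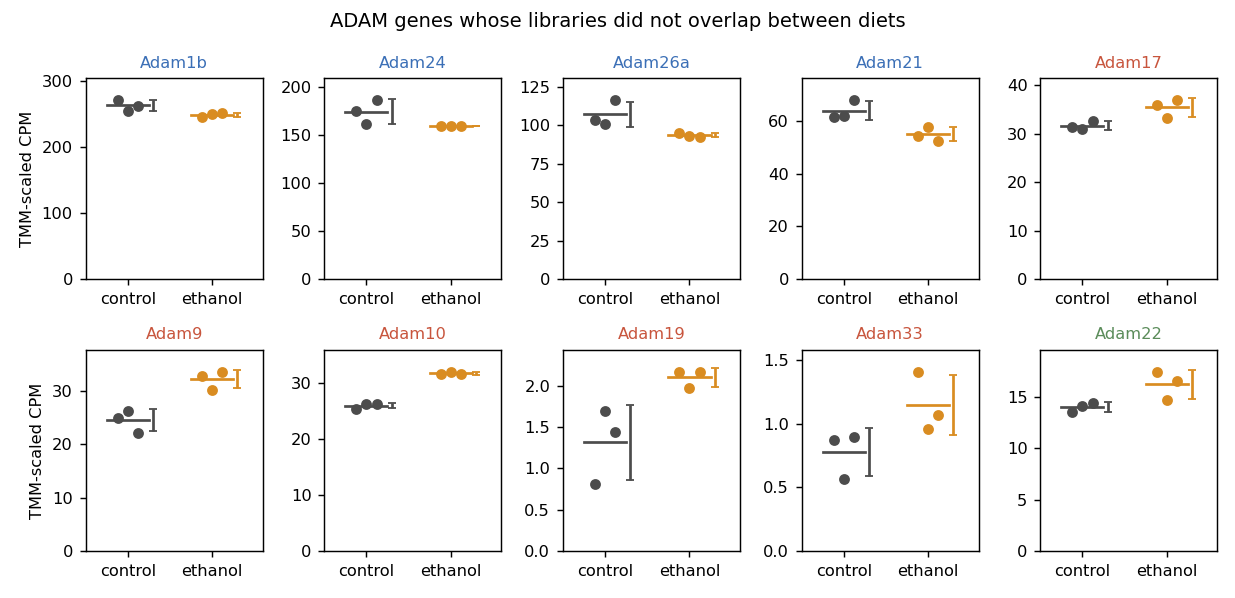
TMM-scaled CPM in each library (points), with the mean (line) and SD (bar, n = 3 a diet), for the 10 ADAM genes whose libraries did not overlap between diets; axes start at 0 and name colours give the class as in the other plots. The 4 sperm-class genes are lower with ethanol by at most 0.22 on the log2 scale, and the 6 others are higher.

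Within the sperm class, the differences at an unadjusted p under 0.05 were those of Adam21 and the testase gene Adam26a. Adam21 (Gene ID 56622; chromosome 12, 81558575 to 81568474) was at 61.6, 61.9 and 67.9 CPM in control libraries 1, 2 and 3 and 54.4, 57.8 and 52.5 CPM in ethanol libraries 1, 2 and 3. All ethanol libraries lay below all controls, and its log2 fold change was -0.22 (SE 0.07) at an edgeR adjusted p of 0.226. Adam26a, or testase 3, was at 103, 101 and 116 CPM in control libraries 1, 2 and 3 and 95.04, 92.98 and 92.3 CPM in ethanol libraries 1, 2 and 3, and its log2 fold change was -0.19 (SE 0.07) at an edgeR adjusted p of 0.251. Its close copy Adam26b was at 29.6, 28.6 and 33.2 CPM in the controls and 29.9, 26.6 and 29.9 CPM with ethanol, with overlap. Their neighbour Adam34, or testase 4, was at 35.3, 32.1 and 39.3 CPM in the controls and 32.96, 36.2 and 35.2 CPM with ethanol, also with overlap. The log2 fold changes of Adam26b and Adam34 were -0.08 (SE 0.08) and -0.03 (SE 0.09). On the TPM scale Adam21 and Adam26a kept their direction, at -0.16 and -0.13 on log2(TPM + 1), with overlap for Adam26a, but did not reach an unadjusted p under 0.05. Without control library 3, the edgeR fold change of Adam26a was -0.14 and no longer at an unadjusted p under 0.05, while that of Adam21 was -0.18 and still was.

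The 4 genes of the second group on chromosome 8 lay close to 0 apart from Adam24. Adam24, or testase 1, was at 175, 161 and 186 CPM in the controls and 159, 159 and 159 CPM with ethanol. The 3 ethanol libraries were nearly equal and lay just below the lowest control, and the log2 fold change was -0.13 (SE 0.06). In TPM its diets overlapped, and the difference was -0.07 on log2(TPM + 1). Adam25, or testase 2, was at 86.8, 81.1 and 93.4 CPM in the controls and 80.8, 84.1 and 84.1 CPM with ethanol. Adam20 was at 122, 108 and 134 CPM in the controls and 113, 119.8 and 117 CPM with ethanol. For Adam39 the level was 85.8, 73.4 and 92.7 CPM in the controls and 83.7, 85.7 and 84.2 CPM with ethanol. Each of these 3 overlapped between diets, and their log2 fold changes were -0.07 (SE 0.07), -0.06 (SE 0.08) and 0.010 (SE 0.08).

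Both fertilin alpha genes lay slightly lower with ethanol. Adam1b was at 272, 256 and 263 CPM in the controls and 246, 249.9 and 252 CPM with ethanol, which left a narrow gap between the diets, and its log2 fold change was -0.08 (SE 0.06). In TPM its diets overlapped, and the difference was -0.02 on log2(TPM + 1). Adam1a was at 368, 338 and 370.4 CPM in the controls and 335, 344 and 345 CPM with ethanol, with overlap, and its log2 fold change was -0.07 (SE 0.06). Their partner Adam2 was at 542, 516 and 534 CPM in the controls and 509, 525 and 517 CPM with ethanol, with overlap, and its log2 fold change was -0.04 (SE 0.05). The 2 leading genes overlapped between diets as well. Adam3 was at 1534, 1414 and 1529 CPM in the controls and 1374, 1471 and 1470.3 CPM with ethanol. Adam5 was at 1013, 979 and 1047 CPM in the controls and 981, 1051 and 1035 CPM with ethanol. Neither differed beyond the spread of its libraries, and their log2 fold changes were -0.05 (SE 0.06) and 0.013 (SE 0.06). Adam18 was at 171, 155 and 171 CPM in the controls and 151, 168 and 165 CPM with ethanol. Adam32 was at 578, 529 and 564 CPM in the controls and 513, 541 and 543 CPM with ethanol. Both overlapped between diets, and their log2 fold changes were -0.04 (SE 0.07) and -0.06 (SE 0.06). Adam29, whose zinc site lacks the glutamate, was at 75.1, 70.2 and 77.2 CPM in the controls and 63.03, 74.8 and 70.9 CPM with ethanol, with overlap, and its log2 fold change was -0.09 (SE 0.08). The signs of Adam2, Adam3, Adam18, Adam20 and Adam34 turned on the TPM scale, where each lay within 0.03 of 0.

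A few sperm-class genes lay on the higher side. Adam6a and Adam6b sit in the immunoglobulin heavy chain locus, and mice that lack both copies are poorly fertile. Adam6a was at 148, 139 and 156 CPM in the controls and 142, 174 and 177 CPM with ethanol, where ethanol library 1 lay within the control range and the other two above it. Adam6b showed the same layout at 119, 102 and 122 CPM in the controls and 108, 128 and 135 CPM with ethanol. Their log2 fold changes were 0.15 (SE 0.09) and 0.12 (SE 0.09), and without ethanol library 1 they were 0.25 and 0.20, both then at an unadjusted p under 0.05 but not past the adjusted threshold. Adam4, whose product is found with ADAM2 and ADAM3 on mouse sperm, was at 90.8, 84.4 and 93.8 CPM in the controls and 85.1, 99.9 and 96.98 CPM with ethanol, and its log2 fold change was 0.07 (SE 0.07). In TPM all ethanol libraries of Adam6a, Adam6b and Adam4 lay above all controls. The differences of these genes on log2(TPM + 1) were 0.20, 0.17 and 0.12. Adam30 was at 115, 110.2 and 113 CPM in the controls and 115, 112 and 114 CPM with ethanol, close together in both diets, and its log2 fold change was 0.012 (SE 0.06).

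Libraries of one diet differed from each other in the sperm class at least as much as the diets did. In CPM, control library 2 was the lowest control for 19 of the 20 genes, and ethanol library 1 the lowest ethanol library for 16 of 20. Summed over the class, the level was 5726, 5339 and 5803 CPM in control libraries 1, 2 and 3 and 5271, 5602 and 5575 CPM in ethanol libraries 1, 2 and 3. The same 2 libraries had the lowest summed level of the 14 elongating spermatid markers, 16982 and 17035 CPM, where the other 4 had 17768 to 20349 CPM. Without control library 2 the count of sperm-class genes below 0 was 17 of 20 and the median -0.10, without ethanol library 1 it was 12 of 20 and -0.03, and without control library 3 it was 12 of 20 and -0.02. In the somatic class the sum was 99.9, 107.9 and 97.7 CPM in control libraries 1, 2 and 3 and 123.5, 114.1 and 120.1 CPM in the ethanol libraries, without overlap. In summed TPM the somatic class overlapped, at 44.6, 52.73 and 41.7 TPM in the controls and 59.8, 53.2 and 52.73 TPM with ethanol, control library 2 reaching the level of ethanol library 3. The sperm class was at 3914, 3921 and 3818 TPM in control libraries 1, 2 and 3. With ethanol it was at 3994, 4046 and 3796 TPM in libraries 1, 2 and 3. In TPM, then, library 3 had the lowest sum of each diet, unlike in CPM.

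**Figure D5:**
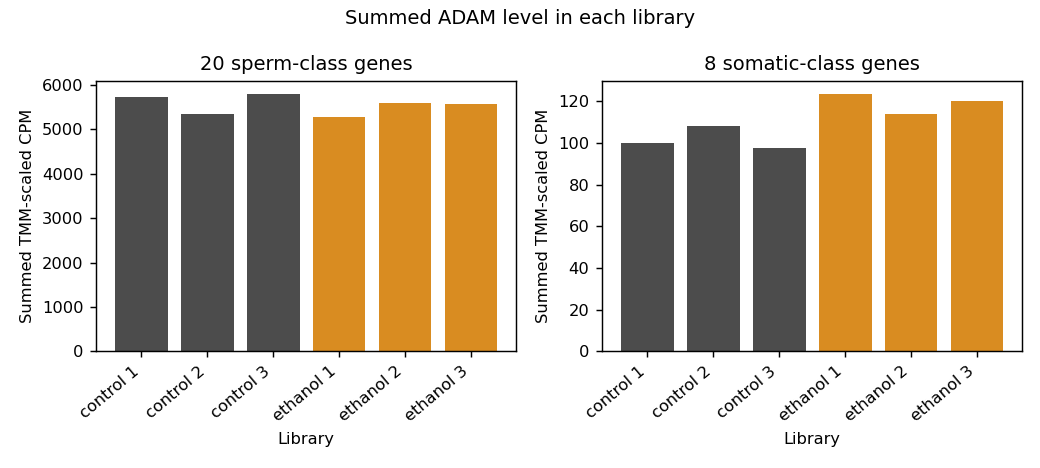
TMM-scaled CPM summed over the 20 sperm-class genes (left) and the 8 somatic-class genes (right) in each library, with grey bars for the control diet and orange bars for the ethanol diet. Control library 2 and ethanol library 1 are the lowest on the left, at 5339 and 5271 CPM, and every ethanol bar on the right is above every control bar.

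Markers of spermatocytes and round spermatids lay mostly below 0, and those of Sertoli, myoid, stromal and macrophage cells mostly above. In the edgeR fit, where 51.5% of all genes lay above 0, 14 of 14 round spermatid markers lay below 0 with a median of -0.10. Of the spermatocyte markers 12 of 14 did, with a median of -0.14, while the elongating spermatid markers had a median of -0.0076. In mean TPM, Acrv1, Spaca3, Tssk1 and Zpbp of the round spermatid markers were slightly higher with ethanol, such as Tssk1 at 459 TPM in controls and 467 TPM with ethanol. So were Sycp3 and Spata22 of the spermatocyte markers that lay below 0. Summed levels were 2938 to 3014 TPM in controls and 2797 to 2978 TPM with ethanol for round spermatids, 1745 to 1923 and 1625 to 1721 TPM for spermatocytes, and 49802 to 53107 and 51224 to 56721 TPM for elongating spermatids. Beside the somatic ADAM genes, 14 of 16 Sertoli markers lay above 0 with a median of 0.22, and their summed level was 1224 to 1389 TPM in controls and 1561 to 1704 TPM with ethanol. For peritubular myoid and stromal markers these values were 10 of 10 and 0.28, at 115 to 126 and 137 to 171 TPM, and for macrophage markers 8 of 9 and 0.24, at 90.7 to 104 and 107 to 117 TPM. Endothelial markers had a median of 0.09, at 15.1 to 18.0 and 15.6 to 21.4 TPM. Adipose markers were above 0 in 7 of 7 with a median of 1.69, at 17.8 to 28.9 and 26.5 to 88.7 TPM, with the highest sum in ethanol library 1. Spermatogonia markers had a median of 0.13, at 107 to 121 and 122 to 123 TPM, and Leydig cell markers -0.04, at 1079 to 1239 and 1090 to 1180 TPM. The Leydig cell markers went both ways, with 4 of 10 above 0 and 6 below. At an unadjusted edgeR p under 0.05, 2 of them were higher and 4 lower, beside 7.45% and 5.89% of all genes. Of 12 epididymal markers 3 were tested, and the sum over all 12, most of it Wfdc10 and Rnase10, was 43.7 to 45.1 and 49.7 to 52.4 TPM. None of these markers passed the adjusted test, and their part in the ADAM differences was not tested.

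RNA of genes for proteins that sperm ADAMs need for folding, processing or surface display showed no common direction. Of 14 such genes, 5 lay above 0 and 9 below, where 51.5% of all genes lay above 0. Their median was -0.02, and 0 passed the adjusted test. At an unadjusted p under 0.05 there was 1 on each side, beside 7.45% of all genes on the higher side and 5.89% on the lower side. Pcsk4, the convertase of germ cells that processes ADAM2, was at 87.6, 84.9 and 103 CPM in the controls and 64.3, 67.5 and 86.8 CPM with ethanol, with overlap, and its log2 fold change was -0.33 (SE 0.11). Prss55, a testis serine protease needed for ADAM3 on sperm, was at 90.7, 90.03 and 70.7 CPM in the controls and 98.3, 97.3 and 96.2 CPM with ethanol, without overlap, and its log2 fold change was 0.21 (SE 0.09). Tpst2, a tyrosine sulfotransferase, stood at -0.25 (SE 0.14) and Pdilt, a testis protein disulfide isomerase, at -0.12 (SE 0.07). The chaperone genes Clgn, at -0.007 (SE 0.05), and Calr3, at -0.02 (SE 0.12), were close to 0.

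Regulators of ADAM10 and ADAM17 leaned to the higher side without any gene past the adjusted test. Of 15 genes, 14 were tested, 12 lay above 0 and 2 below, where 51.5% of all genes lay above 0, and the median was 0.11. The list holds both carriers and inhibitors of these proteases, so its direction has no single meaning for their activity. Of the 14, only Timp3, an inhibitor of ADAM17, was at an unadjusted p under 0.05, beside 7.45% of all genes on the higher side. Timp3 was at 32.6, 31.6 and 25.8 CPM in the controls and 33.7, 36.02 and 35.7 CPM with ethanol. Its diets did not overlap, and its log2 fold change was 0.23 (SE 0.09). Tspan33, a tetraspanin that binds ADAM10, was at 0.20 (SE 0.11) and Reck, a membrane protease inhibitor, at 0.16 (SE 0.09). Sfrp1, which can inhibit ADAM10, was at 0.28 (SE 0.19) and a level of about 2 CPM. The iRhom genes Rhbdf1 and Rhbdf2, whose products carry ADAM17 to the cell surface, stood at 0.17 (SE 0.20) and 0.06 (SE 0.15).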

How the data were processed

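Total RNA of mouse testis was measured in 6 libraries, 3 a diet. The submitters' processing notes name HISAT2 and the mm10 build. How reads were counted, with which annotation and whether by strand, is not given in the sources used here. The deposited table holds raw read counts per gene, and FPKM and TPM computed by the authors, per the file headers. The labels gave each library's diet and number, and 0 sample columns were left unused. Total counts were 38935654 to 47420249 per library. In all 15 pairs, libraries differed by more than sampling noise (chi-square per gene at least 7.18).

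Genes were kept by filterByExpr and fitted with edgeR 4.0.16 (R 4.3.3) on the whole table, with TMM scaling, no covariate and Benjamini-Hochberg adjustment; each standard error was derived from the F test of that gene. Fold changes of FPKM and TPM came from limma 3.58.1 on log2 values with a pseudocount of 1 or 0.1. DESeq2 1.42.0 was an alternative. The procedure was tested on simulated data. Structures came from GENCODE M21, coordinates and promoters from RefSeq GRCm38.p6. The members, classes, lists and the naming rule (members of at least 10 TPM, at an unadjusted p under 0.05 or without overlap; 4 genes of smallest p a list) were chosen with earlier results of these data known. Adam8, Adam11, Adam12, Adam15 and Adam23, and the list genes Clgn, Calr3, Rhbdf1 and Rhbdf2, were named outside that rule after their values were seen.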

Additional observations from a re-analysis of the deposited data

How the results depend on the processing

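Of all genes, edgeR called 0 in each direction at an adjusted p of 0.05, with 1867 higher and 1476 lower at an unadjusted p under 0.05. DESeq2 called 203 higher and 127 lower, among them 2 ADAM genes, Adam9 and Adam10. limma-voom called 3 higher and 2 lower, a threshold of 0.1 gave 4 and 1, and upper-quartile scaling and the filter of 1 CPM in 3 libraries each gave 2 higher. With the replicate number as a block there were 5 higher and 10 lower and 0 ADAM genes. Correlations of deviations were -0.06, 0.0029 and 0.13 between libraries of the same number, and ran from -0.16 to 0.16 between unlike numbers. With 3 libraries a diet these values cannot show whether the numbers pair libraries, and the labels do not say. Leaving out 1 library gave 0 to 1 higher and 0 to 2 lower. ADAM members at an unadjusted p under 0.05 were 7, and 4 to 8 with 1 library left out; the 4 came without control library 1 or 3, and the cause was not tested. The other fits gave 5 to 8. Shares of all genes are not given here for these alternatives, so the counts show only how the number of members moved. The median over members was -0.03, lay between -0.04 and 0.020 in the other fits and between -0.06 and 0.0065 with 1 library left out, and so changed sign while moving by less than 0.055, its spread between libraries. The abundant members were 23, 20 at 20 TPM or 10 FPKM, and 25 at 5 TPM. Signs turned on log2(TPM + 1), with and without the filter, for Adam3 (0.0048), Adam2 (0.018), Adam18 (0.020), Adam20 (0.0038) and Adam34 (0.028), and on log2(TPM + 0.1) (0.0048, 0.018, 0.020, 0.0039 and 0.029). With 1 library left out, Adam5 ranged from -0.012 to 0.042, Adam39 from -0.079 to 0.081, Adam30 from -0.0055 to 0.020, Adam20 from -0.13 to 0.012, Adam34 from -0.10 to 0.040 and Adam18 from -0.084 to 0.0069. With 3 libraries a diet, the median standard error over members was 0.075 on the log2 scale.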
